A study of Mus musculus with 8 samples.

Results

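The sites described here are 1069 of the 4806 single cytosines listed for 5-carboxylcytosine (5caC) in Tdg knockout mouse embryonic stem cells. At these positions ordinary bisulfite left no read unconverted, while a reaction that protects 5caC made a share of the reads stay C. The sites were chosen from their read counts: no unconverted read in the bisulfite-only library, at most 100 reads over both 5caC libraries, and no cytosine of the 5-formylcytosine (5fC) list within 1000 bp on either strand. They are called zero-read sites below. Of the 4806 cytosines, 1355 had no unconverted bisulfite-only read, 4 of those had more than 100 reads, and 282 of the remaining 1351 had a 5fC site within 1000 bp.

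In mammalian DNA, TET enzymes oxidise 5-methylcytosine (5mC) stepwise to 5-hydroxymethylcytosine (5hmC), 5fC and 5caC. Thymine DNA glycosylase (TDG) cuts 5fC and 5caC out of the DNA, and base excision repair then restores plain cytosine, so cells without TDG keep more of these bases. Ordinary bisulfite leaves 5mC and 5hmC as C but converts plain cytosine, 5fC and 5caC, which then read as T. Coupling an amine to the carboxyl group of 5caC shields it from conversion. A cytosine that reads as T in ordinary bisulfite and as C after the coupling is therefore one where the captured DNA showed 5caC without a detected 5mC or 5hmC read.

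The comparison used 2 libraries, both of Tdg -/- cells of strain C57BL/6-ICR and both from DNA pulled down with antiserum against 5caC. One was treated with bisulfite alone and one was protected first with a carbodiimide (EDC), NHS and an azide-bearing benzylamine. The 5fC list, from the same genotype, served only for its positions. Each group had 1 library, so all tests compare the reads of 2 libraries and there is no measure of the spread between cultures. The cells were grown without feeders in medium with serum and LIF, and the labels do not say how many clones were used. The libraries of Tdg fl/fl cells were not analysed here. Levels are those of the DNA that the antiserum captured.

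With protection, zero-read sites read as C in a median of 44.4% of reads (95% interval of the median from binomial ranks 43.5 to 45.5), with quartiles of 37.9% and 53.3% and a range from 15.2% to 100%. Since the bisulfite-only share was 0 by choice, this percentage is also the rise with protection. Of the 1069 sites, 18 read as C in under 25% of protected reads, 655 in 25% to under 50%, 375 in 50% to under 75%, and 21 in 75% or more. A single site had no converted protected read, chr18:12187108 on the minus strand, with 13 of 13 reads unconverted. At all other zero-read sites protected C reads and T reads were found side by side in the captured DNA.

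The absence of unconverted bisulfite-only reads rested on few reads. A zero-read site had a median of 18 protected reads (range 10 to 70) and 12 bisulfite-only reads (range 10 to 35). A count of 0 in 10 reads allows a share of up to 30%, counting 3 reads as the limit, and 267 sites stood at exactly 10 reads. At 12 reads the limit is 25%, at 20 reads 15% and at 30 reads 10%. At least 20 bisulfite-only reads were present at 71 sites (6.64%) and at least 30 at 2 sites. At the typical site, a count of 0 is thus an upper limit of 25% on 5mC and 5hmC in the captured copies, not a measured absence. These limits cover counting error only, since reads without molecular identifiers may be copies of one molecule.

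**Figure D1:**
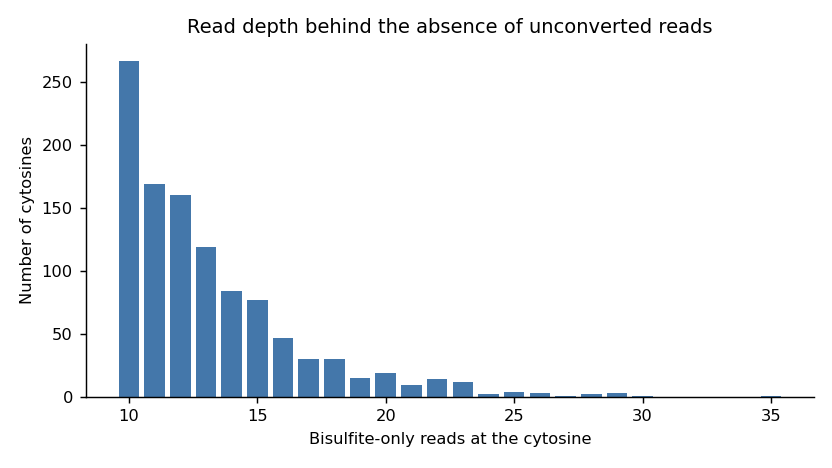
Number of zero-read cytosines (vertical axis) by the number of bisulfite-only reads at the cytosine (horizontal axis), all of them converted. The tallest bar, 267 cytosines, is at 10 reads, the lowest number in the list, and 71 cytosines had 20 or more.

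The zero-read sites with the most bisulfite-only reads give the firmest view of a cytosine without detected 5mC or 5hmC. At chr11:57554922, plus strand, the protected library had 24 C reads of 45 (53.3%, exact 95% interval 37.9 to 68.3) and the bisulfite-only library 0 of 28, a limit of 10.7%. Position chr14:103474801, minus strand, gave 13 of 42 protected reads (31.0%, interval 17.6 to 47.1) and 0 of 30. At chr17:68137898, minus strand, 16 of 58 protected reads (27.6%, interval 16.7 to 40.9) and 0 of 29 were unconverted. In 2 of these 3 deep sites the protected share was below the median of 44.4%. The site with the most bisulfite-only reads, chrX:166437487 on the plus strand, had the lowest protected share of all, 7 of 46 (15.2%, interval 6.34 to 28.9) against 0 of 35, a limit of 8.57%. Over the 10 sites with the most bisulfite-only reads, on 9 chromosomes, the protected share ran from 15.2% to 53.3%. Only chr11:57554922 among them lay above the median of 44.4%. The next highest share was 36.1%, at chr11:103085561.

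The 10 zero-read sites with the smallest p by Fisher's exact test, two-sided, lay on 9 chromosomes and read as C in 51.4% to 100% of protected reads. The first, chr2:37603981 on the plus strand, had 30 of 39 protected reads unconverted (76.9%, exact 95% interval 60.7 to 88.9) and 0 of 17 without protection. At chr17:45861841, plus strand, the counts were 32 of 47 (68.1%, interval 52.9 to 80.9) and 0 of 20. At chr15:38076911, plus strand, they were 23 of 35 (65.7%, interval 47.8 to 80.9) and 0 of 18. All 3 sites thus read as T throughout in ordinary bisulfite and as C in most reads after protection. The 10 p-values ran from 3.19e-08 to 7.22e-06, or 3.06e-05 to 0.000728 after Benjamini-Hochberg adjustment over the 4806 listed cytosines.

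Under that adjustment, 160 of the 1069 zero-read sites (15.0%) had a Fisher's exact adjusted p below 0.01. Over the whole list the share was 9.97%. The choice of sites with no bisulfite-only C read used this same contrast, so both shares are descriptions. All listed cytosines have an unadjusted p below 0.05, and how many cytosines were tested to make the list is not known here. With an unadjusted p below 0.005 the count was 376. With an adjusted p below 0.05 it was all 1069, an outcome fixed in advance. Adjusting within a list whose p-values are all below 0.05 cannot give a value of 0.05 or more.

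Depth shaped the level that a zero-read site could show. With 10 reads in each library, at least 5 protected reads (50%) had to be unconverted to be listed, and with 20 in each 5 reads (25%) were enough. The median protected share was 50% at the 217 sites with 10 to 12 protected reads and 37.2% at the 114 sites with 30 to 70. Over the classes of bisulfite-only depth it went from 50% at 10 reads to 35% at the 71 sites with 20 to 35. Over the 1069 sites, Spearman's rho of the protected share was -0.33 with protected reads and -0.40 with bisulfite-only reads, as a description of sites that share 2 libraries. Exactly at the lowest listable number of C reads stood 271 sites (25.4%, exact interval 22.8 to 28.1), while 381 were 3 or more reads above it and 170 were 5 or more above it.

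**Figure D2:**
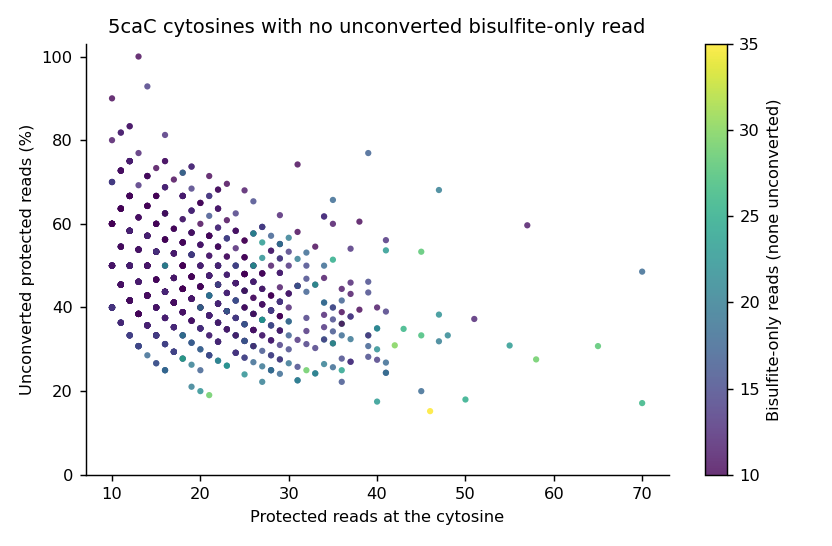
Unconverted protected reads in percent (vertical axis) against protected reads (horizontal axis) for each of the 1069 zero-read cytosines, coloured by bisulfite-only reads. The lower edge falls with depth, following the listing rule, and the points run from 15.2% to 100% around a median of 44.4%.

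Values were also read on either side of the limits used for the choice. The 759 sites within the same limits but with 1 unconverted bisulfite-only read had a median protected share of 53.3%. Their median rise was 45.5 percentage points, against 44.4 points at zero-read sites. An unconverted bisulfite-only read also raises the protected share needed for listing. The median lowest listable share was 35% at zero-read sites and 58.3% over all 2221 sites with 1 or more such reads. The listing rule thus sets these medians in part. The largest totals inside the limit were 96, 93 and 88 reads, with protected shares of 17.1%, 30.8% and 48.6%. The 4 sites outside it had 102, 118, 130 and 564 reads and shares of 47.2%, 21.6%, 24.2% and 2.29%. The first 3 of these also had a 5fC site at 43, 4 and 130 bp, so lifting the read limit alone adds 1 site, for 1070. That site, chrX:166436248 on the plus strand, lies close to chrX:166437487, the zero-read site with the lowest protected share. The 3 sites nearest to a 5fC site within the choice, at 1002, 1011 and 1012 bp, had protected shares of 30.8%, 32.4% and 41.7%. The 3 just left out, at 959, 959 and 958 bp, had 46.2%, 40% and 31.6%.

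Next, the share of 5caC cytosines without an unconverted bisulfite-only read was followed with the distance to 5fC. It was lower beside 5fC sites than away from them. Among 5caC cytosines with at most 100 reads it was 18.9% (56 of 297, exact 95% interval 14.6 to 23.8) where the same cytosine was on the 5fC list. It was 20.1% (17.4 to 23.0) with a 5fC site at 1 to 200 bp and 20.1% (15.7 to 25.2) at 201 to 1000 bp. Beyond the limit used for the choice it was 29.3% (142 of 485, 25.3 to 33.5) at 1001 to 10000 bp, 31.9% (29.5 to 34.3) up to 100000 bp and 34.4% (31.8 to 37.0) farther away. In all, 1069 of 3290 sites without a 5fC site within 1000 bp were zero-read (32.5%, 30.9 to 34.1), against 282 of 1422 with one (19.8%, 17.8 to 22.0).

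The median bisulfite-only share was 11.8% where the same cytosine was on the 5fC list, 15.4% at 1 to 200 bp and 20% at 201 to 1000 bp, and 10%, 9.09% and 9.09% in the 3 classes farther away. The median number of bisulfite-only reads was 16 and 15 in the closest 2 classes and 13 in each of the others. The intervals take no account of sites that share fragments, and the difference was not tested. The 282 sites with no unconverted bisulfite-only read near 5fC had a median protected share of 41.7% (interval 40 to 44), and their median depths were 22 protected and 13 bisulfite-only reads. The zero-read sites themselves lay a median of 71.4 kb from the nearest 5fC site, with 142 (13.3%) at 1 to 10 kb and 456 (42.7%) beyond 100 kb. A position missing from the 5fC list is not shown to lack 5fC, since its reads are not in the files.

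**Figure D3:**
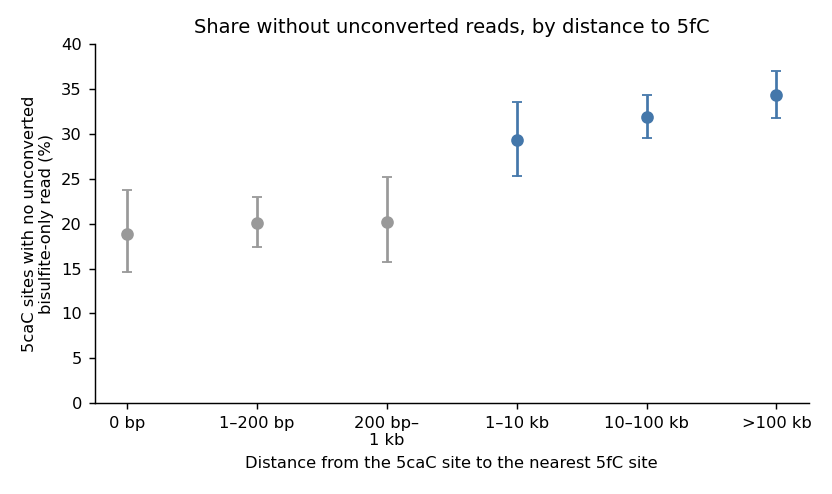
Share of 5caC cytosines with no unconverted bisulfite-only read (vertical axis, percent, with exact 95% intervals) by distance to the nearest 5fC site (horizontal axis), at up to 100 reads per cytosine. Grey classes, within 1000 bp, lie at 18.9% to 20.1%, and blue classes, which hold the 1069 zero-read sites, at 29.3% to 34.4%.

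Neighbouring 5caC cytosines were examined next. The choice did not use the distance between 5caC sites. Another 5caC site lay within 200 bp of 308 zero-read sites (28.8%, exact 95% interval 26.1 to 31.6). Of the 2221 comparison sites, which met the same limits on depth and 5fC but had at least 1 unconverted bisulfite-only read, 673 had one (30.3%, 28.4 to 32.3). Over the whole 5caC list it was 35.8%. The share at zero-read sites rose with the depth required, to 45.0% when 15 reads per library were required and 53.3% when 20 were, where 60 sites were left. Comparison sites and the whole list were not counted at those depths, so the rise is not shown to be particular to zero-read sites.

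The bisulfite-only reads of neighbours were read as a description only, since the choice used the same count: every neighbour within 200 bp that had no unconverted bisulfite-only read was itself a zero-read site, 141 around zero-read sites and 204 around comparison sites. For 127 of the 308 zero-read sites with a neighbour, the nearest one also had no unconverted bisulfite-only read (41.2%, exact 95% interval 35.7 to 47.0). For comparison sites this held at 188 of 673 (27.9%, 24.6 to 31.5). Neighbours on one strand can be covered by the same reads, whereas bisulfite reads of opposite strands come from different DNA strands. With the nearest site taken on the opposite strand, it held at 20 of 52 zero-read sites (38.5%, 25.3 to 53.0) and 30 of 117 comparison sites (25.6%, 18.02 to 34.5), and these intervals overlap. A pair of zero-read sites nearest to each other was counted from both ends. The exact intervals treat such starting sites as independent, which they are not. Taken on either strand, the nearest sites had a median of 14 bisulfite-only reads in both sets. On the opposite strand the medians were 13 around zero-read sites and 12 around comparison sites. The nearest opposite-strand site lay a median of 23 bp from zero-read sites but 52 bp from comparison sites. On either strand these distances were 23 and 27 bp. With only the first site of each group of zero-read sites used as a starting point, the share was 26.5%, a setting that by construction removes a zero-read starting point from each group.

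**Figure D4:**
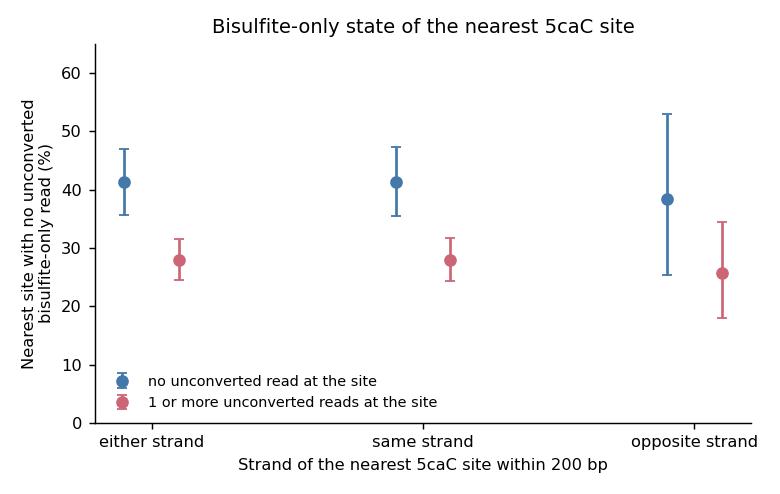
Share of sites whose nearest other 5caC cytosine within 200 bp had no unconverted bisulfite-only read (vertical axis, percent, with exact 95% intervals), by the strand of that neighbour (horizontal axis). Zero-read sites (blue, 41.2% on either strand) stand above comparison sites (red, 27.9%), with overlapping intervals for the opposite strand. The intervals treat the sites as independent, although pairs of zero-read sites are counted from both ends.

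Counting each neighbouring cytosine once, 366 lay within 200 bp of a zero-read site, and 141 of them (38.5%, 33.5 to 43.7) had no unconverted bisulfite-only read, against 204 of 727 (28.1%, 24.8 to 31.5) around comparison sites. Their median bisulfite-only share was 6.25% and 9.09%. Split by depth, the share was 48.1% against 32.1% at neighbours with 10 to 12 bisulfite-only reads, 35.6% against 34.8% at 13 to 16 reads, and 31.1% against 19.8% at 17 to 100 reads. The intervals were apart only in the first class, 39.2 to 57.0 against 26.2 to 38.4. Neighbours that read as C in at least 50% of bisulfite-only reads numbered 11 of 366 (3.01%) around zero-read sites and 50 of 727 (6.88%) around comparison sites. These differences were not tested, since neighbours share fragments and are not independent.

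Joining zero-read sites up to 200 bp apart gave 928 single sites and 67 groups, of which 61 had 2 sites, 5 had 3 and 1 had 4. The groups held 141 sites (13.2%), spanned a median of 27 bp, and lay on a single strand in 57 cases. In 48 groups no other 5caC site was within 200 bp, so that all the 5caC cytosines listed there lacked an unconverted bisulfite-only read. Within groups of 2 the protected shares differed by a median of 9.48 percentage points.

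The group of 4 lay on the minus strand at chr11:22510502-22510629, with protected shares of 31.4%, 44.4%, 45% and 33.3%, and 0 of 49 bisulfite-only reads unconverted over its cytosines. At chr5:114387794-114387812, 3 plus-strand cytosines within 19 bp read as C in 51.6%, 25.7% and 31.9% of protected reads and in 0 of 58 bisulfite-only reads. On the same strand, the 5caC site chr5:114387925 had 1 of 11 bisulfite-only reads unconverted. At chr4:140429066-140429191 the shares were 25%, 30.8% and 18%, with 0 of 56. The totals of 49, 58 and 56 add up the bisulfite-only reads of each cytosine, so a read that covers several cytosines is counted at each. At chr5 the 3 cytosines had 20, 18 and 20 such reads. In each of these groups, which spanned 19 to 128 bp, several zero-read cytosines had C reads only after protection. Of the cytosines in these groups, only chr5:114387794 had a Fisher's exact adjusted p below 0.01. The others did not reach that threshold one by one. Neighbouring reads on one strand may also be from the same molecules.

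The other 2 groups named by the same rule also had 5caC cytosines with bisulfite-only C reads within 200 bp. The 3 zero-read sites at chr3:9614922-9614961 had 0 of 62 bisulfite-only reads unconverted, again added up over the cytosines. On the minus strand, 3 more 5caC sites among or beside them had 2 of 28, 4 of 25 and 3 of 24. The group at chr8:25553804-25554021, all on the minus strand, had protected shares of 72.2%, 51.7% and 37.0%. Added up in the same way, 0 of 54 bisulfite-only reads were unconverted. Between its second and last sites, chr8:25554009 on the same strand read as C in 13 of 24 bisulfite-only reads (54.2%) and 26 of 32 protected reads (81.2%). A few bases from it, the zero-read site chr8:25554021 gave 0 of 22 and 10 of 27.

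**Figure D5:**
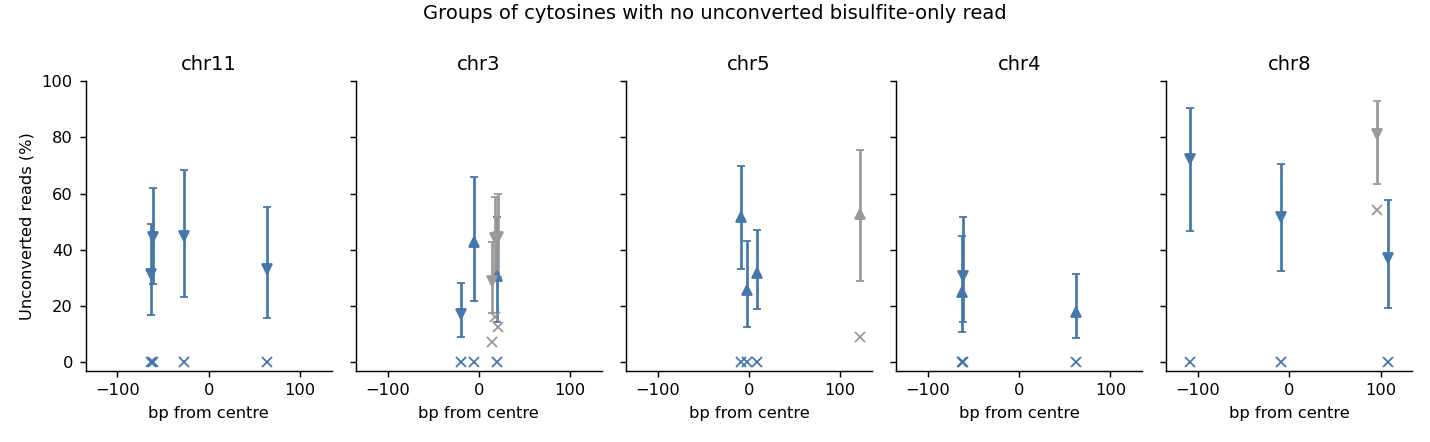
Unconverted reads in percent (vertical axis) against distance in bp from the group's centre (horizontal axis) for the 5 groups with the most zero-read sites. Triangles are protected shares with exact 95% intervals (up for plus, down for minus strand), crosses are bisulfite-only shares, blue marks zero-read sites and grey other 5caC sites. Blue crosses are at 0, and the grey cross in the chr8 panel is at 54.2%.

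TET enzymes act mainly on CpG, where each strand carries a cytosine that can be modified. The opposite-strand cytosine of the CpG, if each site is one, was also on the 5caC list for 13 zero-read sites (1.22%, exact 95% interval 0.649 to 2.07), against 25 comparison sites (1.13%, 0.730 to 1.66). In 3 CpGs both cytosines were zero-read. At chr4:130694941-130694942 the plus strand gave 10 of 20 and the minus strand 5 of 13 unconverted protected reads, with 0 of 12 and 0 of 10 without protection. At chr5:76049685-76049686 the counts were 8 of 15 and 9 of 22, with 0 of 10 and 0 of 11. The third, at chr4:140429066-140429067, gave 7 of 28 and 8 of 26, with 0 of 19 and 0 of 12. Protected shares of the 2 strands differed by 5.77 to 12.4 percentage points in these CpGs, and their exact 95% intervals overlapped in each.

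For the other 7 sites the partner cytosine had unconverted bisulfite-only reads, 1 read at 4 partners and 2 or more at 3, with shares from 5.26% to 22.2%. At chr11:96000700, plus strand, 7 of 15 protected and 0 of 13 bisulfite-only reads were unconverted, while its minus-strand partner gave 14 of 17 and 2 of 11. An unlisted partner is not shown to lack 5caC, since it may not have reached 10 reads.

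Zero-read sites were spread over both strands and all autosomes. The plus strand held 545 and the minus strand 524 (51.0% plus, exact 95% interval 47.9 to 54.0), against 50.7% plus at comparison sites. The 19 autosomes held 1066 sites, or 0.446 per Mb between the first and last listed positions, from 0.316 per Mb on chromosome 3 to 0.698 on chromosome 11. As a share of the 5caC sites with at most 100 reads and no 5fC site within 1000 bp, zero-read sites made up 23.7% on chromosome 19 (28 of 118, 16.4 to 32.4) and 41.2% on chromosome 15 (54 of 131, 32.7 to 50.2). The intervals of the other 17 autosomes held the overall 32.5%. Differences between chromosomes were not tested. Chromosome X had 3 zero-read sites, at chrX:11829025 with 5 of 11, chrX:50589854 with 10 of 22 and chrX:166437487 with 7 of 46 unconverted protected reads.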

How the data were processed

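The authors deposited, per the file headers, whole-number counts of C and of T reads at each cytosine in the protected and the bisulfite-only library, a difference of fractions and an unadjusted p-value, for cytosines of each mark in knockout cells. Per the submitters' processing notes, mm9, Bismark and HOMER were used, with no roles given. Chromosome names in the files are those of mm9, positions are printed as deposited, and no mm9 sequence or annotation was used here, so genes and sequence context are not given. The deposited p-value was within 0.3% of a two-sided Fisher's exact test on those counts, and the deposited difference of fractions equals the difference in C reads within 5e-05. Listed cytosines had at least 10 reads per library.

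From the counts, protected and bisulfite-only percentages, Fisher's exact test, Benjamini-Hochberg adjustment over all 4806 5caC sites, exact (Clopper-Pearson) 95% intervals, distances and neighbours were computed with Python 3.11.15, numpy 2.4.6, pandas 2.3.3 and scipy 1.17.1, and the code was tested on simulated data. Columns were matched to libraries through the titles of the samples. The sites, lists and tests were chosen with earlier results of these data known. Named sites are, by rule, the 10 with the lowest p, the 10 with the most bisulfite-only reads, the 5 groups with the most sites (ties by bisulfite-only reads) and CpGs with both strands chosen. Sites at the edges of the choice, on X, beside the groups, with no converted protected read, and the printed partner were named after their values were seen. Other read minimums, distances, windows and thresholds were tried.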

Additional observations from a re-analysis of the deposited data

How the results depend on the processing

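Of 81 values recomputed under other settings, 55 stayed within the 95% interval of the reported value or, for counts, within 1.5 times of it. The nearest-neighbour share with its settings, the opposite-strand setting and the 200 to 1000 bp setting were added after seeing the data. With at least 15 reads in each library 229 sites were left, with a median protected share of 36.1%, 66 sites past the adjusted p of 0.01, 0% with no converted protected read, 45.0% with a 5caC neighbour and 2 with a listed CpG partner. With at least 20 reads these were 60, 35%, 28, 0%, 53.3% and 0. Fewer sites reach those depths, and deeper sites can be listed at lower levels. Allowing 1 unconverted bisulfite-only read gave 1828 sites, a median of 48.7%, 249 past the adjusted p and 24 with a listed partner. Without a limit on 5fC distance, 32.9% had a neighbour and 27 a listed partner. With 1 site per group, 23.5% had a neighbour, 8 a listed partner, 24.5% of neighbouring cytosines had no unconverted bisulfite-only read, and the nearest-neighbour share was 26.5%. A threshold of adjusted p below 0.05 passed all 1069 sites, which the listing rule fixed in advance. An unadjusted p below 0.005 passed 376. A window of 1000 bp gave 32.7% with a neighbour. Neighbours at 200 to 1000 bp had no unconverted bisulfite-only read in 27 of 81 cases (33.3%, exact 95% interval 23.2 to 44.7). Around comparison sites it was 51 of 225 (22.7%, 17.4 to 28.7), and these intervals overlap. The plus-strand share stayed within its interval under each setting run. No paired analysis was possible because each group had 1 library. With a median of 12 bisulfite-only reads, a count of 0 allows a share of 5mC and 5hmC of up to 25% at the typical site.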
